A study of Gelatoporia subvermispora and Trametes versicolor with 24 samples.

Results

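In the white-rot fungus Trametes versicolor, 98 of 14570 listed genes were lower in standing than in shaken cultures and kept a measurable level there. They were chosen by their measured values. L is log2(CPM + 1), where CPM is a gene's count divided by the gene reads of its library and scaled to 1000000, and each group value is the mean L of 3 libraries. The static mean had to lie at least 1.8 below the agitated mean both without and with antioxidants, and a static mean of at least 2.6 was required with or without antioxidants. A further 54 genes met both falls but not the retained level. Since the static against agitated values chose the 98 genes, those values are given as a description, without a test.

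White-rot fungi are wood-decaying basidiomycetes that break down lignin with secreted oxidative enzymes and take up the aromatic fragments. In shaken liquid culture mycelium usually grows as submerged pellets that are stirred and aerated, while in standing culture it usually forms a mat with poorer mixing. Ascorbic acid is a water-soluble reductant, and α-tocopherol stops radical chain reactions in lipids. The gene tables carry running numbers and pair none of them with a name or product, so the genes below are known by number and by behaviour alone.

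T. versicolor strain FP-10164 was grown at 28 °C in 25 mL of Czapek-Dox medium with 15 mM cellobiose, either shaken at 220 rpm or static. All cultures received about 2 mM 4-hydroxybenzoate, an aromatic acid related to lignin, after 6 days and were collected 24 h later, on day 7, so no group lacks this compound. In the antioxidant groups, 1 mM α-tocopherol and 5 mM ascorbic acid were added 30 min before the 4-hydroxybenzoate. The 4 groups of 3 libraries are agitated without antioxidants, agitated with antioxidants, static without antioxidants and static with antioxidants. The labels do not say whether replicates came from separate flasks, so the spread between libraries may be partly technical.

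The 12 libraries held 3431340 to 6725806 gene reads, with static replicate 1 without antioxidants the shallowest and agitated replicate 1 without antioxidants the deepest. Over the 10505 genes that passed the filter on low counts, agitated libraries correlated with each other at 0.94 to 0.992 and static libraries at 0.975 to 0.991 (Pearson's r of L across genes, a description). All 98 genes passed the filter. The smallest count of any of them was 29 reads in agitated replicate 1 without antioxidants and 6 reads in static replicate 2 with antioxidants, so counting error matters mainly in static culture.

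In agitated culture these were well-expressed genes, and in static culture most of them were ordinary or weak ones. Their group mean L ran from 4.57 to 12.7 (median 6.90) in agitated cultures without antioxidants and from 4.22 to 13.2 (median 6.85) with them. In static cultures it ran from 2.42 to 9.93 (median 4.02) without and from 1.85 to 9.99 (median 4.00) with antioxidants. Of the 98, 97 lay above the median tested gene in agitated culture and 36 in static culture. Ranked by mean L over both groups of a culture state, 33 were among the 1000 most abundant tested genes when agitated and 5 when static. The median rank moved from 1404 to 6114 of 10505. Agitated levels near or above the median tested gene, and the drop in rank, follow largely from the rule. It required falls of at least 1.8 and a retained level of at least 2.6.

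The median difference between static and agitated L was -2.39 without antioxidants (quartiles -3.03 and -2.02) and -2.40 with them (quartiles -2.96 and -2.11). The median tested gene differed by 0.10 and -0.05 on the same scale. In CPM, the typical static level was 14.3% of the agitated level without and 15.7% with antioxidants (medians over the 98 genes). A fall of at least 3 on the log2 scale was seen for 26 genes without and 24 genes with antioxidants, and a fall of at least 4 for 7 and 6 genes. The retained level was met in both static groups by 85 genes, without antioxidants only by 11 and with antioxidants only by 2. These figures describe the choice of genes and carry no further weight.

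**Figure D1:**
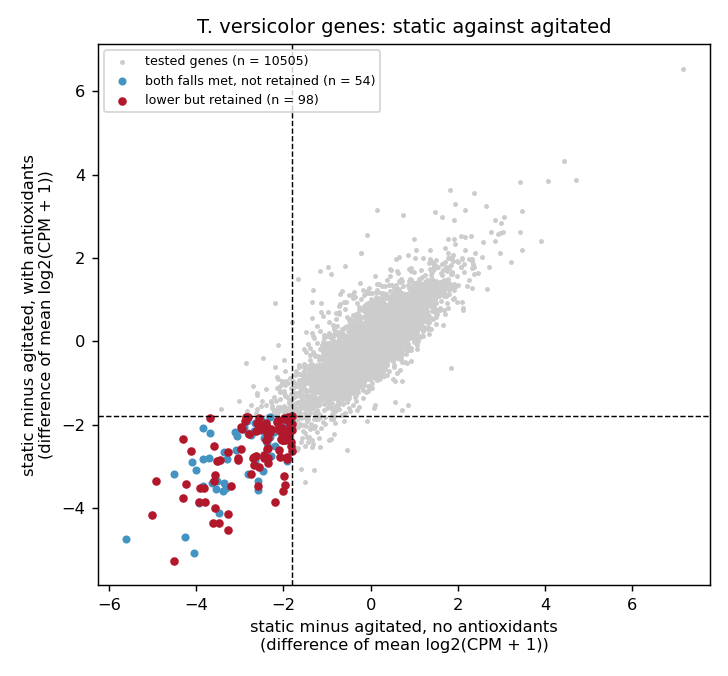
Difference between static and agitated mean log2(CPM + 1) without antioxidants (x axis) and with antioxidants (y axis), 1 point per T. versicolor gene, with dashed lines at the -1.8 threshold. The 98 retained genes (red) and the 54 genes below the retained level (blue) lie in the lower left corner by construction.

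The thresholds cut through a continuous distribution. Just inside the fall threshold stood gene745, whose lesser difference in L was -1.802, and gene6935, at -1.804. Just outside stood gene7679, at -1.798, and gene9619, at -1.789. At the retained level, gene6315 (2.62) and gene10162 (2.64) were just inside, and gene9129 (2.58) and gene2993 (2.53) just outside.

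edgeR's quasi-likelihood test over all tested genes called 95 of the 98 lower in static culture without antioxidants, where it called 15.8% of tested genes lower, and 88 with antioxidants, where it called 13.9% lower. Every static library lay below every agitated one for 80 of the 98 genes without antioxidants (16.3% of tested genes) and for 97 with antioxidants (24.4%). Over all 6 static against all 6 agitated libraries, 74 genes did not overlap (9.72% of tested genes). Nothing is read from these counts, because the same contrasts chose the genes.

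The 98 genes took 3.01, 3.85 and 5.28% of gene reads in agitated replicates 1, 2 and 3 without antioxidants. With antioxidants, the agitated replicates stood at 2.95, 3.75 and 3.57%. The static libraries held 0.408, 0.474 and 0.428% without antioxidants and 0.455, 0.367 and 0.465% with them. The group means were 4.04% ± 1.15 (SD, n = 3), 3.42% ± 0.421, 0.437% ± 0.0336 and 0.429% ± 0.0538 in that order. Relative to its mean, the SD was largest in agitated cultures without antioxidants. It was of similar relative size in the agitated and the static cultures with antioxidants. A pair of genes, gene1659 and gene11229, made up much of the sum: without them the shares were 2.28% ± 0.378 and 2.09% ± 0.133 in agitated and 0.302% ± 0.0167 and 0.299% ± 0.0272 in static cultures.

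gene1659 had the highest mean CPM of the 98 in each group, although by mean L gene11229 was slightly higher in agitated cultures without antioxidants (12.71 against 12.66). It stood at 1237, 13636 and 16199 CPM in agitated replicates 1 to 3 without antioxidants and at 9309, 10236 and 8199 CPM in those with antioxidants. In static cultures it stood at 801, 1169 and 991 CPM without and at 1154, 749 and 1223 CPM with antioxidants. Replicate 1 without antioxidants was the only agitated library close to the static range, and it lay just above the highest static value. The static minus agitated difference in L was -2.73 without antioxidants, and -3.93 when that library was left out.

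gene11229, the second in abundance, had its low agitated value in another library. It stood at 8797, 3583 and 9528 CPM in agitated replicates 1 to 3 without antioxidants and at 640, 5116 and 6336 CPM with antioxidants. Static values were 419, 373 and 286 CPM without and 285, 243 and 244 CPM with antioxidants. Agitated replicate 1 with antioxidants was thus low for this gene, while replicate 1 without antioxidants was high. The difference in L with antioxidants was -3.42, and -4.47 without that library.

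The spread between replicates of the 98 genes was wide in agitated culture and narrow in static culture. The median within-group SD of L was 0.811 without and 0.564 with antioxidants in agitated culture, and 0.275 and 0.246 in static culture. Over all tested genes the corresponding medians were 0.224, 0.242, 0.198 and 0.176. For the 54 genes below the retained level they were 0.942, 0.746, 0.242 and 0.244. The wide agitated spread was therefore not particular to the 98 genes. Counting error alone would give the median gene of the 98 an SD of about 0.0466 and 0.0514 in the agitated and 0.160 and 0.163 in the static groups. With both groups of a culture state pooled, 90 of the 98 genes had the larger SD in agitated culture (91.8%, against 66.0% of tested genes), and 37 had an agitated SD above 1 (1.83% of tested genes), while none of the 98 had a pooled static SD above 1. A gene with a wide spread can pass a threshold on means through a single library, so the spread is not independent of how the genes were chosen.

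Across the 98 genes, the 6 static libraries correlated with each other at 0.925 to 0.983, and the 6 agitated libraries at 0.322 to 0.973 (Pearson's r of L, a description over genes that share these libraries). The lowest value, 0.322, was between the replicate 1 libraries without and with antioxidants. Agitated replicate 1 without antioxidants correlated with static libraries at 0.591 to 0.677 over these genes, within its range of 0.322 to 0.722 with the other agitated ones. Over all tested genes that library correlated with the other agitated libraries at 0.94 to 0.975 and with static libraries at 0.923 to 0.934. Its whole profile was therefore closer to agitated cultures, and its departure among the 98 genes concerned a subset.

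**Figure D2:**
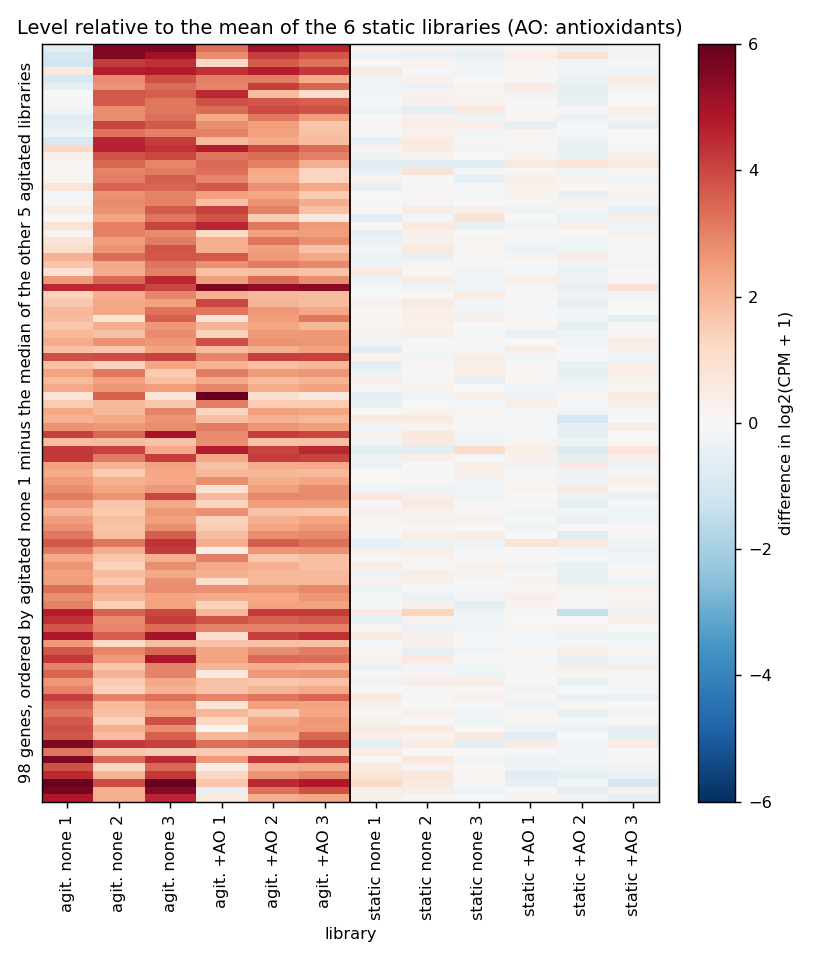
Log2(CPM + 1) of each of the 98 genes (rows) in the 12 libraries (columns), relative to the gene's mean over the 6 static libraries, with rows ordered by agitated replicate 1 without antioxidants minus the median of the other 5 agitated libraries. The upper rows are pale, near the static level, in that 1 agitated library and red in the other agitated libraries, while the static libraries vary little.

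In agitated replicate 1 without antioxidants, 26 of the 98 genes lay at least 4-fold below their median in the other 5 agitated libraries, on the scale of L. The same was true of 8 genes in agitated replicate 1 with antioxidants, of 1 gene in agitated replicate 3 with antioxidants, and of none in the remaining 3. Over all tested genes the shares were 0.80% and 0.438% in the replicate 1 libraries and 0.0381% or less in the others. The 26 genes were grouped after their values were seen and are described without a test. Only 1 gene was low in both replicate 1 libraries.

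In agitated replicate 1 without antioxidants the median of these 26 genes was 14 CPM. Their medians in replicates 2 and 3 were 183 and 241 CPM, and in the agitated cultures with antioxidants 160, 174 and 114 CPM. In the static libraries the medians ran from 13.2 to 16.9 CPM. For these 26 genes, therefore, 1 shaken library stood at the level of the standing ones. The values of 20 of the 26 were at or below the gene's highest static value, and 9 were below every static value. As a sum, the 26 genes took 0.204% of gene reads in that library, 1.53 to 2.67% in the other agitated libraries and 0.154 to 0.217% in the static ones.

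The other 72 genes, which by the split were not low in that library, had their own levels. Their median in agitated replicate 1 without antioxidants was 149 CPM, between 92.8 and 162 CPM in replicates 2 and 3. In agitated cultures with antioxidants their medians were 81.3, 126 and 132 CPM, and in static cultures they ran from 12.2 to 17.2 CPM. The static medians of the 72 and of the 26 genes covered similar ranges.

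**Figure D3:**
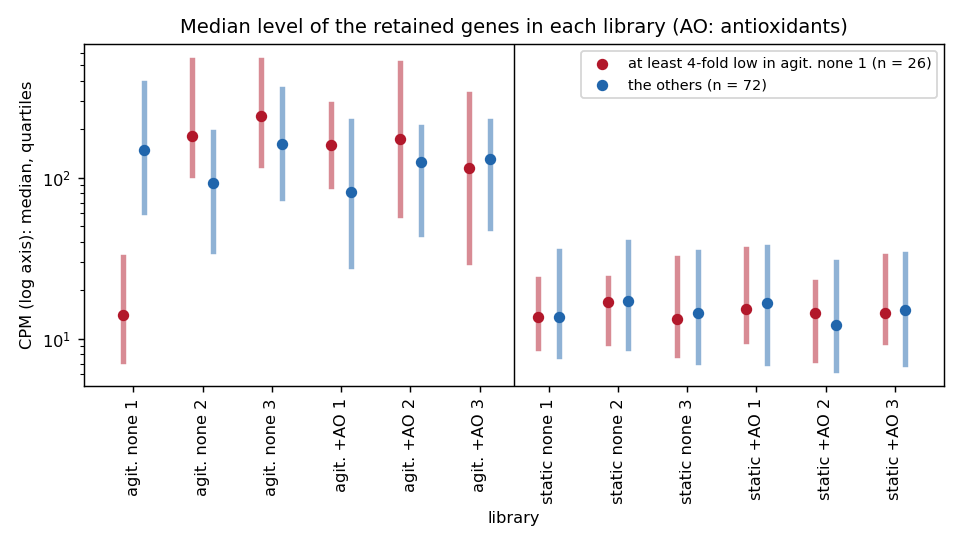
Median CPM (points, log axis) and quartiles (bars) in each library of the 26 genes at least 4-fold low in agitated replicate 1 without antioxidants (red) and of the other 72 (blue). The red point of that library, at 14 CPM, lies among the static medians of 13.2 to 16.9 CPM, while the blue point is at 149 CPM.

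gene12784 and gene8642 had the widest agitated spread. gene12784 stood at 7.73, 683 and 686 CPM in agitated replicates 1 to 3 without antioxidants and at 138, 478 and 333 CPM with antioxidants. Its static values were 14.9, 16 and 10.0 CPM without and 14.6, 9.61 and 14.5 CPM with antioxidants, so that agitated replicate 1 was below every static library. gene8642 stood at 5.2, 580 and 403 CPM in the agitated replicates without antioxidants and at 87.3, 218 and 162 CPM in those with them. Its static values were 8.74, 8.75 and 8.05 CPM without and 15.4, 21.7 and 9.86 CPM with antioxidants. The differences in L without antioxidants, -3.48 and -3.58, became -5.58 and -5.67 without agitated replicate 1.

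gene929, with a large fall in the presence of antioxidants, followed the same order. It stood at 9.07, 174 and 181 CPM in agitated cultures without and at 138, 173 and 127 CPM with antioxidants. Static values were 8.74, 5.21 and 5.01 CPM without and 6.21, 5.02 and 4.66 CPM with antioxidants. Its difference in L was -3.26 without and -4.54 with antioxidants, and -4.64 without antioxidants once agitated replicate 1 was left out.

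gene13500 and gene9650 had the largest falls without antioxidants, -5.01 and -4.91 in L. gene13500 stood at 430, 84.0 and 511 CPM in agitated cultures without and at 17.4, 126 and 157 CPM with antioxidants. Its static values were 11.7, 7.4 and 4.29 CPM without and 3.0, 4.18 and 1.97 CPM with antioxidants. Like gene11229, it was lowest among agitated libraries in replicate 1 with antioxidants, where it was still above every static value. gene9650 stood at 549, 211 and 192 CPM in agitated cultures without and at 110, 126 and 180 CPM with antioxidants, and at 6.41, 14 and 6.44 CPM in static cultures without and 14, 8.78 and 14.9 CPM with them. No library brought its culture states near each other.

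For the 8 genes at least 4-fold low in agitated replicate 1 with antioxidants, the median there was 36.0 CPM. Their medians were 407, 122 and 520 CPM in agitated replicates 1 to 3 without antioxidants and 166 and 179 CPM in replicates 2 and 3 with them. In static libraries they ran from 21.5 to 38.1 CPM. Of the 8, 3 were at or below the gene's highest static value in that library, and none was below every static value. As a sum, the 8 genes took 0.121% of gene reads in that library, above the 0.0439 to 0.0734% in the static ones. In the other agitated libraries the sum was 0.677 to 1.46%. Which agitated library was low thus depended on the gene.

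Over all 98 genes, 20 were at or below their highest static value in agitated replicate 1 without antioxidants, 4 in agitated replicate 1 with antioxidants, 1 in agitated replicate 3 with antioxidants and none in the other 3 agitated libraries. That left 74 genes above their static range in all 6 agitated libraries, against 9.72% of tested genes. The fall thresholds that chose the genes shape these counts. The 54 genes below the retained level showed 8 such cases in agitated replicate 1 without antioxidants, 2 in agitated replicate 1 with antioxidants and none elsewhere. As shares these are 20.4% and 4.08% of the 98 genes and 14.8% and 3.70% of the 54, a difference that was not tested. In bulk cultures, fewer cells that express a gene and less RNA per cell cannot be told apart.

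**Figure D4:**
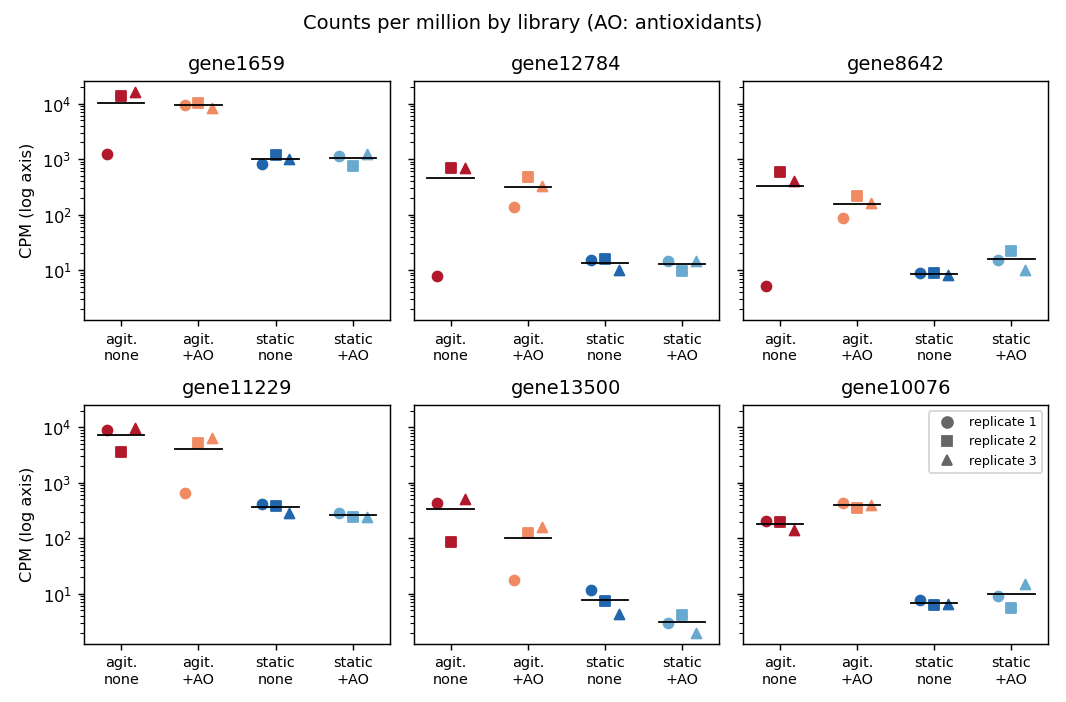
CPM (log axis) of 6 of the 98 genes in each library, with marker shapes for replicates 1 to 3 and a line at the group mean. In gene1659, gene12784 and gene8642 the agitated replicate 1 library without antioxidants is near the static level, in gene11229 and gene13500 the agitated replicate 1 library with antioxidants is the lowest of the agitated ones, and in gene10076 the agitated replicates of each group lie close together.

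Whether antioxidants changed the 98 genes was tested within each culture state. The rule set no threshold on this contrast, but it used the same 4 group means and so limits which antioxidant effects these genes can show. With p-values from edgeR adjusted over 10505 genes by the Benjamini-Hochberg method, the quasi-likelihood test called none of the 98 in agitated culture in either direction. Over all tested genes it called 0.0286% higher and 0.0% lower (3 and 0 genes). At an unadjusted p under 0.05 there were 8 of the 98 (2 higher and 6 lower), against 6.51% of tested genes, and the smallest adjusted p was 0.302. DESeq2, which gave 97 of the 98 an adjusted p, called 1 of them higher and 0.196% of the 7651 genes with one, and limma-voom called none of the 98. The log2 fold changes of the 98 ran from -2.36 to 2.46 with a median of -0.21, against 0.01 over tested genes. The median depended on the library and the tool: it was -0.02 without agitated replicate 3 and -0.35 without agitated replicate 2, both without antioxidants, and -0.07 with limma-voom.

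Antioxidant effects were imprecise for these genes in both culture states, and the static SE is given further below. In agitated culture the median SE of the log2 fold change was 0.424, against 0.216 over tested genes. Of the 98 genes, 16 differed by 2-fold or more in either direction (2.07% of tested genes did), and none of the 16 passed the edgeR test after adjustment over all genes. When both agitated replicate 1 libraries were left out, a choice made after seeing the data, edgeR called 5 of the 98 lower with antioxidants, and 30 of all 10594 genes then tested (0.283%). They were gene11376, gene13477, gene164, gene11620 and gene161, with log2 fold changes of -2.27, -2.17, -1.74, -1.09 and -0.90. None of them was called with all libraries in the fit. The left-out library without antioxidants was the low one of its group for gene11376 (7.14 CPM, against 364 and 269 in replicates 2 and 3). It was also the low one for gene164, gene161 and gene11620. Leaving it out raises their mean without antioxidants by construction. The left-out library with antioxidants was the highest of its group for gene161 (272 CPM, against 137 and 101 in replicates 2 and 3), gene11620 and gene164. Its removal lowers the mean of those genes with antioxidants. For gene11376 it was not the highest (58.0 CPM, against 72.1 and 56.7). Only replicates 2 and 3 of each agitated group remain. Nothing further is read from these calls.

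gene10076 had the smallest p of the 98 in agitated culture. It stood at 202, 195 and 141 CPM in the agitated replicates without antioxidants and at 434, 357 and 390 CPM in those with antioxidants, so the groups did not overlap. Its log2 fold change was 1.15 (SE 0.23, edgeR adjusted p = 0.302). DESeq2 gave 1.13 with an adjusted p of 0.0034, and over 22 alternatives the adjusted p ran from 0.0034 to 0.786. In static cultures it stood at 7.87, 6.39 and 6.44 CPM without and at 9.21, 5.43 and 15.2 CPM with antioxidants, where the groups overlapped. The static log2 fold change had the same sign, 0.715 (SE 0.295, edgeR unadjusted p = 0.0296, adjusted p = 0.804). It also had the largest fall with antioxidants, -5.27 in L, beside -4.50 without.

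gene5422, named after its values were seen, reached 2.46, the highest log2 fold change of the 98 (edgeR adjusted p = 0.793, SE 1.42), through a single library. It stood at 38.1, 259 and 35.5 CPM in agitated replicates 1 to 3 without antioxidants and at 1756, 42.8 and 33.2 CPM with antioxidants. Its static values ran from 14 to 31.9 CPM. Replicate 1 with antioxidants was far above the other agitated libraries, which elsewhere was the low one for 8 genes.

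gene514 had the smallest p among the genes lower with antioxidants in agitated culture. It stood at 229, 35.6 and 196 CPM without and at 11.7, 36.0 and 41.2 CPM with antioxidants. The groups overlapped through replicate 2 without antioxidants. The log2 fold change was -2.36 (SE 0.65, edgeR adjusted p = 0.598), and -2.83 with an edgeR adjusted p of 0.0265 when that library was left out. Over 22 alternatives its adjusted p ran from 0.0265 to 0.982. Static values were 9.62, 8.41 and 6.98 CPM without and 8.61, 6.48 and 4.84 CPM with antioxidants.

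In static culture none of the 98 genes passed the adjusted edgeR test either, which called 0.409% of tested genes higher and 0.00952% lower with antioxidants (43 genes and 1 gene). At an unadjusted p under 0.05 there were 6 of the 98, all higher with antioxidants, against 5.57% of tested genes in either direction. DESeq2 and limma-voom called none. The log2 fold changes ran from -1.14 to 1.55 with a median of 0.04, against -0.01 over tested genes. Their median SE was 0.528, against 0.220 over tested genes, and so larger than the 0.424 in agitated culture. The fit used a common estimate of the spread over all groups, although static replicates lay closer together. Small static effects could therefore be missed in this fit. Of the 98, 5 differed by 2-fold or more, against 1.85% of tested genes. With only the static groups in the fit, which then set the spread without the agitated libraries, edgeR called 3 of the 98 higher, against 1.25% of all 9935 genes then tested, and 1 lower, against 0.211%. Here gene10665, gene6866 and gene9057 were higher, with log2 fold changes of 1.55, 0.75 and 0.71, and gene14152 was lower, with -0.99. At an unadjusted p under 0.05 that edgeR fit had 25 of the 98 in either direction, against 1010 of the 9935 genes. The SE of gene10665 was 0.767 with all groups in the fit (edgeR adjusted p = 0.9525). It was 0.178 with only the static groups (edgeR adjusted p = 0.000291).

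gene8343 had the smallest p among the genes higher with antioxidants in static culture, at 84.5, 69.6 and 81.8 CPM without and 121, 95.7 and 103 CPM with them. The groups did not overlap, and the log2 fold change was 0.59 (SE 0.20, edgeR adjusted p = 0.561). gene6315 had the smallest p among those lower, at 5.83, 5.89 and 3.94 CPM without and 3.40, 1.25 and 3.76 CPM with antioxidants (log2 fold change -0.69, SE 0.34, edgeR adjusted p = 0.919). Unadjusted, the edgeR p was 0.0114 for gene8343 and 0.0592 for gene6315, and neither passed after adjustment over all genes. Whether the antioxidant effect differed between agitated and static culture was not tested, because it is built from the contrasts that chose the genes.

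**Figure D5:**
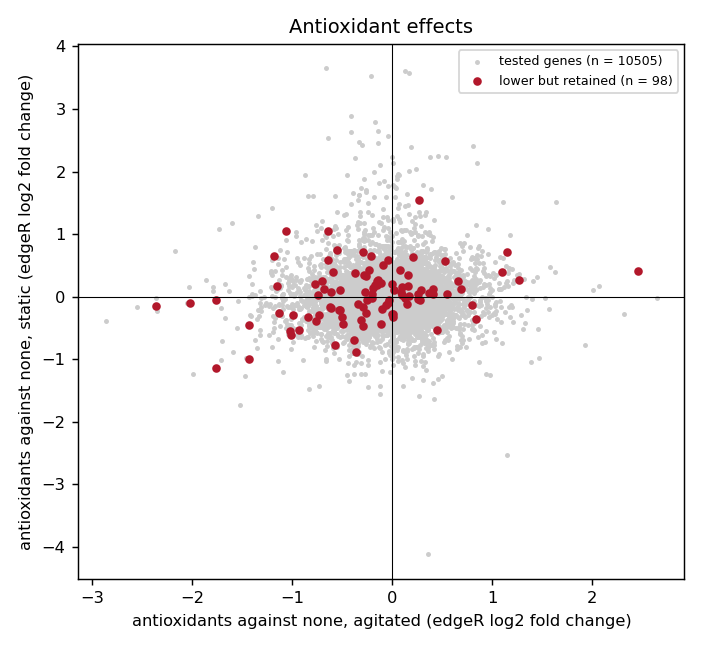
edgeR log2 fold change with against without antioxidants in agitated (x axis) and static (y axis) culture, 1 point per tested gene, with the 98 retained genes in red. The red points run from -2.36 to 2.46 along the x axis and from -1.14 to 1.55 along the y axis, and none passed the adjusted test in either state.

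Some of the 98 genes had neighbouring running numbers. In all, 6 genes (6.12%) had another of the 98 at the next number, in 2 runs of 3, while 1.32% of all listed genes had one of the 98 beside them. The files do not say whether the numbers follow the genome, so this describes the numbering, and reads shared by overlapping or near-identical genes were not examined.

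The first run was gene8341, gene8342 and gene8343. gene8341 stood at 391, 198 and 279 CPM in agitated cultures without and at 270, 247 and 292 CPM with antioxidants, and at 31.2, 37.3 and 35.8 CPM in static cultures without and 42.0, 44.7 and 45.7 CPM with them. gene8342 stood at 425, 149 and 361 CPM and at 284, 243 and 262 CPM in the agitated groups, and at 13.7, 23.5 and 17.5 CPM and 20.2, 20.1 and 25.3 CPM in the static ones. gene8343 stood at 646, 382 and 471 CPM and at 429, 446 and 569 CPM in the agitated groups. All 3 genes were lowest among agitated libraries in replicate 2 without antioxidants and highest in replicate 1 without antioxidants.

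The second run was gene10160, gene10161 and gene10162. gene10160 stood at 1000, 449 and 625 CPM in agitated cultures without and at 153, 718 and 715 CPM with antioxidants, and at 53.3, 95.5 and 31.5 CPM in static cultures without and 42.4, 13.8 and 29.8 CPM with them. gene10161 stood at 384, 116 and 179 CPM and at 28.1, 152 and 152 CPM in the agitated groups, and at 35.3, 38.5 and 25.8 CPM and 20.4, 19.6 and 17.6 CPM in the static ones. gene10162 was weaker, at 20.8, 17.4 and 37.1 CPM and at 13, 30.6 and 31.5 CPM in the agitated groups. All 3 were lowest among agitated libraries in replicate 1 with antioxidants, where gene10161 fell within its static range. The 2 runs thus differed in which agitated library was the lowest.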

How the data were processed

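Counts of 12 T. versicolor libraries were used; the 12 libraries of the other species of the series were not used here. Each deposited file lists unnormalized read counts, 1 row per gene. HTSeq, Bowtie, Bowtie2 and FastQC appear in the submitters' processing notes without version. No build, annotation or strand setting is given in the sources used here, so overlapping genes and near-identical copies are uncertain. Per the labels' protocols, libraries were made from total RNA with a stranded kit. The 5 lines for uncounted reads, 36.1 to 51.1% of all reads, stayed out of totals and tests.

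The members and lists were chosen with earlier results of these data known. With no gene names, no list by function could be filled. CPM and L used the total of gene reads. Tests used edgeR 4.0.16 in R 4.3.3 (filterByExpr, TMM, 1 model of 4 group means over 12 libraries, 8 residual degrees of freedom, robust quasi-likelihood fit), with Benjamini-Hochberg adjustment over 10505 genes and a threshold of 0.05. Alternatives used DESeq2 1.42.0 and limma 3.58.1. The test was also run on simulated counts, whose outcome is not given here. That run is not used to judge how well effects could be found in the chosen genes, which varied more between replicates than the median tested gene. No replicate pair agreed within sampling noise (chi-square per degree of freedom 3.19 to 65.1). Genes were named by rank (highest level, largest falls, smallest p in each direction, widest agitated spread, nearest each threshold, neighbouring numbers); those called only under alternatives were named after their values were seen.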

Additional observations from a re-analysis of the deposited data

How the results depend on the processing

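The number of genes meeting the rule was 98, and 64 with a fall threshold of -2.0; under the other scalings, pseudocounts and thresholds it was 74 to 133, and 69 to 111 with 1 library left out. Without both agitated replicate 1 libraries it was 117, of which 84 were among the 98. The median fall without antioxidants, -2.39, was -2.23 to -2.76 with 1 library left out and -2.76 without both replicate 1 libraries. Agitated antioxidant calls among the 98 were 0, against 1 with DESeq2, 5 without both replicate 1 libraries and 0 to 2 with 1 library left out (gene11376 without agitated replicate 1 and gene514 and gene6866 without agitated replicate 2, both without antioxidants). Static calls were 0, against 4 with only the static groups, 2 without both replicate 1 libraries (gene10665 and gene9057) and 0 to 1 with 1 library left out (gene10665 and gene6866, without the same agitated libraries 1 and 2). With the replicate block, both counts were 0. Deviations from group means correlated at -0.305 to 0.112 between libraries of the same replicate number and at -0.312 to 0.308 between other pairs. With 3 libraries per group, these values cannot decide whether the replicate numbers pair the libraries. The share of gene reads was 2.70% in agitated antioxidant and 0.391% in static cultures without antioxidants when the 20 most abundant genes were left out of the total, and 2.50, 0.338 and 0.325% in agitated antioxidant, static and static antioxidant cultures without gene1659. Within 2 numbers of another of the 98 lay 10 genes, against 6 at the next number. The cause of these shifts was not tested.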
